A study of Mus musculus with 9 samples.

Results

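The genes described here are the components of the mTOR complexes and their nearest regulators, 10 genes chosen by symbol: Mtor, Rptor, Rictor, Mlst8, Deptor, Akt1s1, Tsc1, Tsc2, Rheb and Rps6kb1. All 10 had counts in every library, and all 10 were among the 18127 genes tested, out of 26602 genes with a count in the series. RNA came from the midbrain, with the substantia nigra, of DJ-1+/+ (called wild-type here) and DJ-1-/- mice, 3 to 4 months old, in 4 and 5 libraries. The DJ-1-/- mice carry a targeted allele of Park7, the gene of DJ-1, in the germline, on a C57BL/6 background reached by backcrossing, and the wild-type mice came from the same heterozygous breeding. No agent was given to either group. The labels number the libraries as samples without naming a mouse or its sex, and the study's sample list gives each library a further number of its own without saying what it stands for, so the p-values measure the spread between these samples, which may be partly technical. Unique molecular identifiers (UMIs) were counted once per gene in 3′ mRNA-seq libraries, which read the polyadenylated end of a transcript. A level in cpm (a gene's count scaled to a library total of 1000000) therefore follows the number of transcripts and not their length.

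mTOR is a serine/threonine kinase that works in 2 complexes. In mTORC1 the scaffold raptor (Rptor) brings substrates such as the S6 kinase to the kinase, which promotes protein synthesis and holds back autophagy, while in mTORC2 the scaffold rictor (Rictor) directs the kinase to Akt. The GTPase Rheb switches mTORC1 on at the lysosome, and the complex of Tsc1 and Tsc2 switches Rheb off. In neurons the pathway couples nutrients, growth factors and energy state to protein synthesis and dendrite growth, and in Parkinson's disease research it is studied for its control of autophagy.

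The libraries held between 841974 and 1098125 counts. The 5 DJ-1-/- totals all exceeded the 4 wild-type totals, with p = 0.0159 in a two-sided exact permutation test, the smallest that 4 against 5 can give. Park7 itself had between 105 and 132 counts in the wild-type and between 14 and 29 in the DJ-1-/- libraries, and it was the single gene of the series with an adjusted p under 0.05 (edgeR quasi-likelihood test, Benjamini-Hochberg adjustment over all genes). Markers of the dissected tissue were present. The dopaminergic neuron genes Th, Slc6a3, Ddc, Slc18a2, Nr4a2, En1 and Aldh1a1 had counts in every library, whereas Pitx3 was at 0 in 2 wild-type libraries. A pair of the wild-type libraries stood apart in genes of neighbouring tissue, replicate 1 with a summed level of 1119 cpm over 8 cerebellar neuron genes and replicate 4 with 1091 cpm over 8 choroid plexus genes. The DJ-1-/- libraries reached at most 444 and 487 cpm for these lists. In bulk tissue, fewer cells of a type and less RNA per cell cannot be told apart.

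The promoters of a pair of members are shown for orientation, Mtor as the kinase and Tsc2 as the member with the smallest p below. Promoters of 9 of the 10 members were matched by symbol in RefSeq (GRCm38.p6), and the 250 bases before the annotated start are given on the gene's own strand. Capitals mark matches on either strand to 4 motifs. The GC box was searched as GGGCGG. The CCAAT box was searched by its own letters. The E-box core that TFEB and MYC sites share was searched as CACGTG. The TATA box was searched as TATAAA.
Mtor, chr4:148448332-148448581, plus strand: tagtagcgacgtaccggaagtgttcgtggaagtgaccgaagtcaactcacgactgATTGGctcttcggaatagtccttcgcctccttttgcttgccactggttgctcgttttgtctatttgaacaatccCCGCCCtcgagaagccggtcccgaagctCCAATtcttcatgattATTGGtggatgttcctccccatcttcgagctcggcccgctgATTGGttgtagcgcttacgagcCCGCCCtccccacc
Tsc2, chr17:24632628-24632877, minus strand: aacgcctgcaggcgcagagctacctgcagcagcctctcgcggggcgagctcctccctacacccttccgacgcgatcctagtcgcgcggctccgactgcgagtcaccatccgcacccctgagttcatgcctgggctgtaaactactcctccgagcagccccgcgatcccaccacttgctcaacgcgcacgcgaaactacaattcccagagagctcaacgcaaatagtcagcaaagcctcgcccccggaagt
The Mtor window held 2 GC boxes and 4 CCAAT boxes, which do not overlap each other, and the Tsc2 window held none of the 4 motifs. In the whole table of 32817 windows of this length, 32.7% hold a GC box, 33.8% a CCAAT box, 6.02% the E-box and 12.4% the TATA box. Among the 9 members 4 held a GC box, 2 a CCAAT box, 1 (Rheb) the E-box and 0 the TATA box, and their CpG dinucleotides numbered from 9 in Rptor to 40 in Rictor, against a median of 6 over all windows. These are letter matches only.

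None of the 10 genes passed the test between the genotypes after adjustment over all genes. The members' adjusted p in edgeR's quasi-likelihood test was 1 (rounded) throughout, where 0.00552% of the genes tested (Park7 alone) had one under 0.05. At an unadjusted p under 0.05, 1 of the 10 members was found, Tsc2, which was higher in DJ-1-/- libraries, against 2.83% of all genes tested, 1.57% higher and 1.26% lower in DJ-1-/-. That split of all genes was 285 higher and 228 lower in edgeR and 106 higher and 129 lower in DESeq2. DESeq2 gave the same count of 1 member at an unadjusted p under 0.05 and 0 at an adjusted p under 0.05. The cpm of the genotypes overlapped for all 10 members, and 1.25% of the genes tested had values without overlap. In log2 fold change 7 members were above 0 and 3 below, with a median of 0.05 and extremes of -0.14 for Rictor and 0.40 for Tsc2, and the median over all genes tested was 0.0079. Exact permutation tests of the cpm of each of the 10 genes gave two-sided p-values from 0.0317 for Tsc2 and 0.111 for Rptor to 0.937 for Mlst8.

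**Figure D1:**
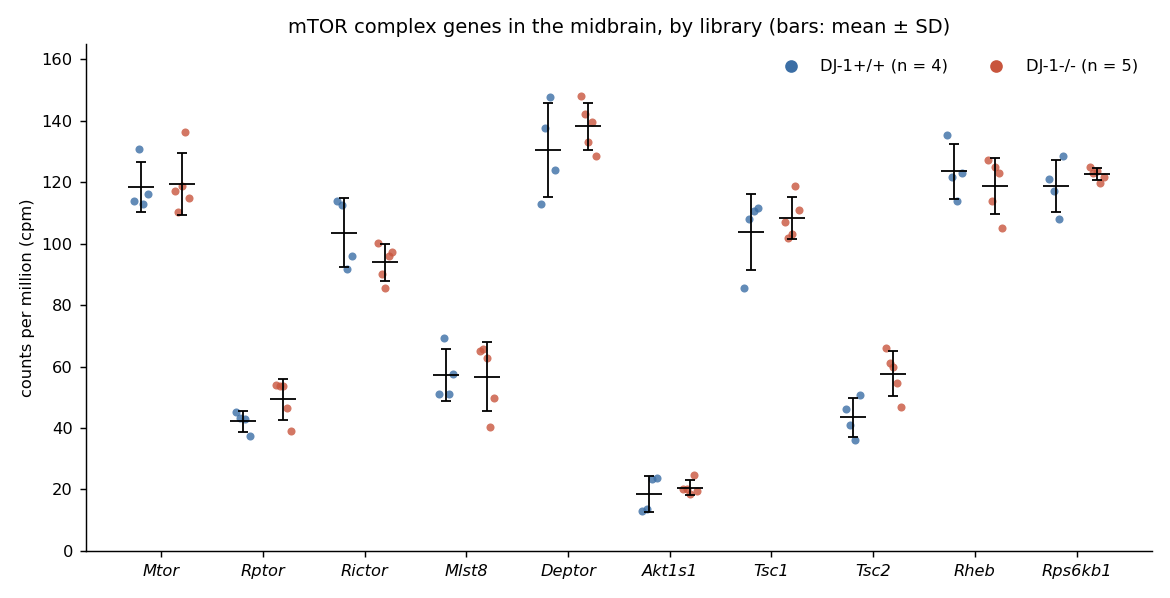
Level of each of the 10 genes in cpm on a linear axis, 1 point per library, blue for wild-type (DJ-1+/+, n = 4) and red for DJ-1-/- (n = 5), with mean ± SD. The genotypes overlap for every gene, and Tsc2 and Rptor have 4 of 5 DJ-1-/- libraries above the highest wild-type library.

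The kinase itself did not separate the genotypes. Mtor (ENSMUSG00000028991; chromosome 4, 148448611 to 148557683, plus strand, GRCm38) had 114, 131, 113 and 116 cpm in the wild-type libraries and 117, 110, 119, 136 and 115 cpm in the DJ-1-/- libraries. One library of each genotype, wild-type replicate 2 and DJ-1-/- replicate 4, was higher than the rest. The log2 fold change was 0.0092 with a 95% interval from -0.22 to 0.24, which leaves room for a level between 0.859 and 1.18 times that of wild-type libraries. Its sign changed in 9 of 18 alternative analyses. The study's own analysis reported mTOR as significantly lower in DJ-1-/- mice, which these counts do not show. The reason for that difference was not examined. Mtor ends 2.34 Mb from the nearest base of Park7 on the same chromosome. The opposite-strand gene Angptl7 and 2 small nuclear RNA genes lie within it, with 10, 1 and 16 counts over the 9 libraries against 1014 for Mtor.

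Mlst8, a small subunit that binds the kinase domain in both complexes, had the widest spread relative to counting error. On chromosome 17, where the opposite-strand gene Bricd5 (3 counts over the 9 libraries) overlaps it, it ranged from 51.1 to 69.3 cpm in wild-type and from 40.3 to 65.6 cpm in DJ-1-/- libraries. The means were 57.3 ± 8.58 (SD over 4) and 56.7 ± 11.2 cpm (SD over 5). The log2 fold change was -0.01 with a 95% interval from -0.35 to 0.33, so that a level between 0.782 and 1.25 times that of wild-type libraries lies within the error.

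The scaffolds that set mTORC1 apart from mTORC2 had fold changes of opposite sign, neither past the test. Rptor (chromosome 11), the mTORC1 scaffold, had 45.1, 43.2, 43.0 and 37.2 cpm in the wild-type libraries and 54.1, 53.7, 53.6, 46.5 and 39.0 cpm in the DJ-1-/- libraries. Of the DJ-1-/- libraries 4 lay above every wild-type library, and replicate 5 lay among them. The log2 fold change of Rptor was 0.23 (standard error 0.15, 95% interval -0.09 to 0.54, unadjusted p = 0.143 in edgeR's quasi-likelihood test).

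Rictor (chromosome 15), the mTORC2 scaffold, had 114, 113, 91.9 and 95.9 cpm in the wild-type libraries and 100.1, 90.2, 85.6, 96.1 and 97.4 cpm in the DJ-1-/- libraries. All 5 DJ-1-/- values were below the wild-type median of 104 cpm, and 3 of them lay inside the wild-type range while replicates 2 and 3 lay below it. The log2 fold change of Rictor was -0.14 (standard error 0.10, 95% interval -0.35 to 0.06, unadjusted p = 0.162 in edgeR's quasi-likelihood test).

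The inhibitors Deptor and Akt1s1 gave no separation either. Deptor, which binds mTOR in both complexes, had the highest level of the members. It had 113, 138, 148 and 124 cpm in wild-type libraries and 148, 142, 133, 139 and 129 cpm in DJ-1-/- libraries. The log2 fold change of Deptor was 0.08 (95% interval -0.10 to 0.26). Akt1s1, which encodes the mTORC1 inhibitor PRAS40, had the lowest level. It had 13.1, 13.6, 23.3 and 23.7 cpm in wild-type libraries and 20.02, 20.03, 18.6, 24.8 and 19.5 cpm in DJ-1-/- libraries. Its 4 wild-type values formed a low and a high pair, and 4 of the 5 DJ-1-/- libraries lay between these pairs. The interval of its log2 fold change, from -0.37 to 0.68 around 0.16, was the widest of the 10.

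Of the pair that restrains Rheb, Tsc2 had the largest difference of all members. Tsc2 (tuberin, the GTPase-activating subunit; ENSMUSG00000002496, chromosome 17, minus strand) had 46.3, 40.9, 36.1 and 50.8 cpm in the wild-type libraries and 66.1, 61.0, 59.8, 54.8 and 46.8 cpm in the DJ-1-/- libraries. The first 4 DJ-1-/- libraries lay above every wild-type library, and replicate 5 lay between wild-type replicates 1 and 4. The means were 43.5 ± 6.4 (SD over 4) and 57.7 ± 7.3 cpm (SD over 5), a 1.32-fold level with a 95% interval from 1.06 to 1.65. The log2 fold change was 0.40 (standard error 0.15, unadjusted p = 0.0158 and adjusted p = 1 in edgeR's quasi-likelihood test; exact permutation test, p = 0.0317). Without wild-type replicate 3, the lowest library, the log2 fold change of Tsc2 was 0.32 and its unadjusted p in edgeR's test was 0.0573. These p-values take all libraries as separate samples. The counts of DJ-1-/- replicates 1 and 2, and of 2 and 3, differed by about what counting error alone gives. These replicates had the highest Tsc2 levels, and whether they came from separate mice is not given.

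**Figure D2:**
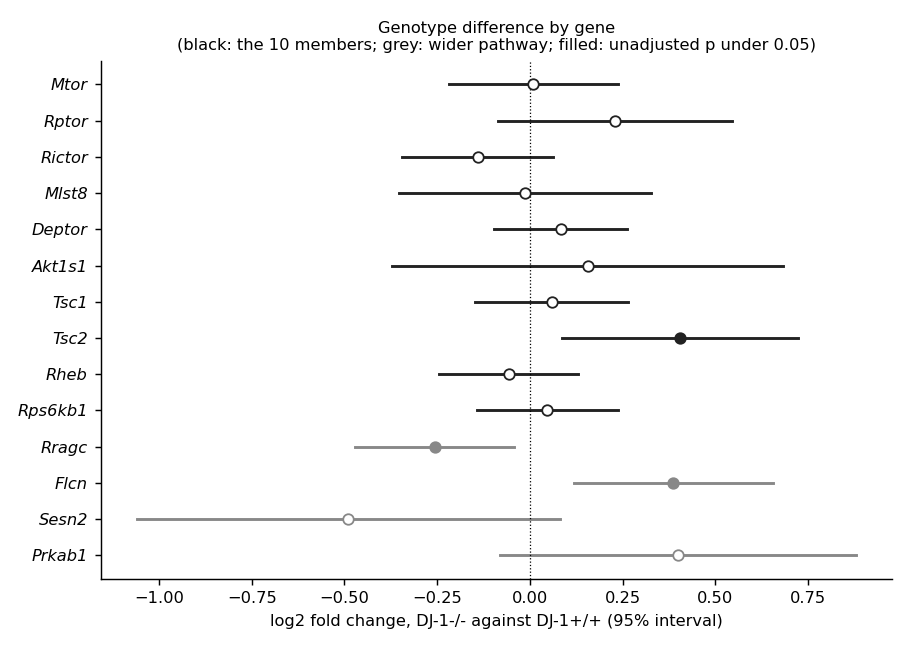
Log2 fold change of each gene between DJ-1-/- and wild-type libraries (horizontal axis) with its 95% interval, in black for the 10 members and in grey for the 4 wider pathway genes named in the text, and filled where the unadjusted p is under 0.05. Tsc2 at 0.40, Flcn at 0.39 and Rragc at -0.26 have intervals clear of 0, and the other 11 intervals include 0.

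An overlapping gene and markers of other cells are given beside the Tsc2 difference, and their part in it was not tested. The last bases of Tsc2 lie under Pkd1, a gene on the opposite strand whose end overlaps it by 693 bp, and the setting for strand in the counting is not given in the sources used here. Pkd1 had 71.9 ± 13.1 cpm (SD over 4) in wild-type and 76.1 ± 7.56 cpm (SD over 5) in DJ-1-/- libraries, a log2 fold change of 0.08. Over the 8 dopaminergic neuron markers the summed level ran from 456 to 898 cpm in wild-type and from 707 to 947 cpm in DJ-1-/- libraries, with 8 of 8 markers above 0 in log2 fold change. All 8 choroid plexus and all 8 cerebellar neuron markers had log2 fold changes below 0. In edgeR's quasi-likelihood test 3 dopaminergic neuron, 4 choroid plexus and 5 cerebellar neuron markers had an unadjusted p under 0.05. The share over all genes tested was 2.83%. The lists of general neuron, oligodendrocyte, astrocyte, microglia and endothelial markers each held 0 such genes. The choroid plexus sum ran from 358 to 1091 cpm in wild-type and from 376 to 487 cpm in DJ-1-/- libraries, and the cerebellar sum from 271 to 1119 and from 279 to 444 cpm. Folr1, Kl and Kcne2 of the choroid plexus and Gabra6 and Pcp2 of the cerebellum were at 0 in at least 1 library. Leaving out the 2 libraries with the highest sums, wild-type replicates 1 and 4, gave Tsc2 a log2 fold change of 0.58. These are also the 2 wild-type libraries with Xist near 0, so that neighbouring tissue and Xist state cannot be told apart in that value.

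Xist, the RNA of the inactive X chromosome, had between 146 and 193 counts in 6 libraries and between 0 and 2 in the other 3, wild-type replicates 1 and 4 and DJ-1-/- replicate 5. Among the 6 libraries with Xist, Tsc2 was at 36.1 and 40.9 cpm in 2 wild-type libraries and between 54.8 and 66.1 cpm in 4 DJ-1-/- libraries, without overlap. Such separation arises more easily between so few libraries than over all 9, and its share over all genes was not computed for them. Among the 3 libraries with Xist near 0, Tsc2 was at 46.3 and 50.8 cpm in wild-type and at 46.8 cpm in the DJ-1-/- library. The second set holds a single DJ-1-/- library and can neither show nor miss a difference, and the difference between the sets was not tested. Rptor showed the same arrangement, with 43.0 and 43.2 against 46.5 to 54.1 cpm in the first set and 37.2 and 45.1 against 39.0 cpm in the second, as did Rps6kb1, with 108 and 117 against 120 to 125 cpm and then 121 and 129 against 122 cpm. Mlst8, Deptor and Rheb overlapped in the first set, and the single DJ-1-/- library of the second lay outside its 2 wild-type libraries, lower for Mlst8 and Rheb and higher for Deptor. Adding the Xist level of each library to the model gave a log2 fold change of 0.42 for Tsc2 and 0.17 for Rptor. Their unadjusted p in edgeR's quasi-likelihood test was then 0.0229 and 0.310.

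Tsc1 (hamartin, chromosome 2), which stabilises Tsc2, had a smaller fold change, and the difference between these genes was not tested. Tsc1 had 85.5, 108, 111 and 112 cpm in the wild-type libraries and 107, 102, 103, 119 and 111 cpm in the DJ-1-/- libraries. Wild-type replicate 1 was well below the other 8 libraries, and the remaining values overlapped. The log2 fold change of Tsc1 was 0.06 (95% interval -0.15 to 0.27).

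Rheb, the GTPase that Tsc2 inactivates, ranged from 114 to 135 cpm in wild-type and from 105 to 127 cpm in DJ-1-/- libraries, with a log2 fold change of -0.06 (95% interval -0.25 to 0.13). Rps6kb1, which encodes the mTORC1 substrate S6 kinase 1, ranged from 108 to 129 cpm in wild-type and from 120 to 125 cpm in DJ-1-/- libraries, with a log2 fold change of 0.05 (95% interval -0.14 to 0.24). The 5 DJ-1-/- values of Rps6kb1 all lay inside the wild-type range. Its 3′ end lies under the opposite-strand gene Rnft1, which overlaps it by 155 bp and had 31.7 ± 8.79 (SD over 4) and 31.9 ± 5.24 cpm (SD over 5).

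Ratios of counts within a library do not depend on depth or normalization, and 6 of them were formed after the values of the single genes had been seen, as a description with no test. Rptor to Rictor was 0.396, 0.384, 0.468 and 0.388 in the wild-type libraries and 0.540, 0.596, 0.627, 0.484 and 0.400 in the DJ-1-/- libraries, so that 4 of 5 DJ-1-/- libraries lay above the wild-type range. Tsc2 to Rheb was 0.342, 0.336, 0.316 and 0.413 in the wild-type libraries and 0.520, 0.536, 0.479, 0.445 and 0.444 in the DJ-1-/- libraries. It was the only ratio of the 6 without overlap between the genotypes. This ratio pairs the member with the largest log2 fold change with a member lower in DJ-1-/- libraries. The share of other gene pairs without overlap was not computed. Tsc2 to Tsc1 ran from 0.326 to 0.542 in wild-type and from 0.421 to 0.617 in DJ-1-/- libraries, and Tsc1 to Rheb from 0.632 to 0.969 and from 0.826 to 1.06. Tsc2 to Pkd1, its neighbour at the 3′ end, ran from 0.514 to 0.813 and from 0.674 to 0.892. Mlst8 to Mtor averaged 0.482 in both genotypes, with an SD of 0.0387 (n = 4) in wild-type and 0.120 (SD over 5) in DJ-1-/- libraries.

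**Figure D3:**
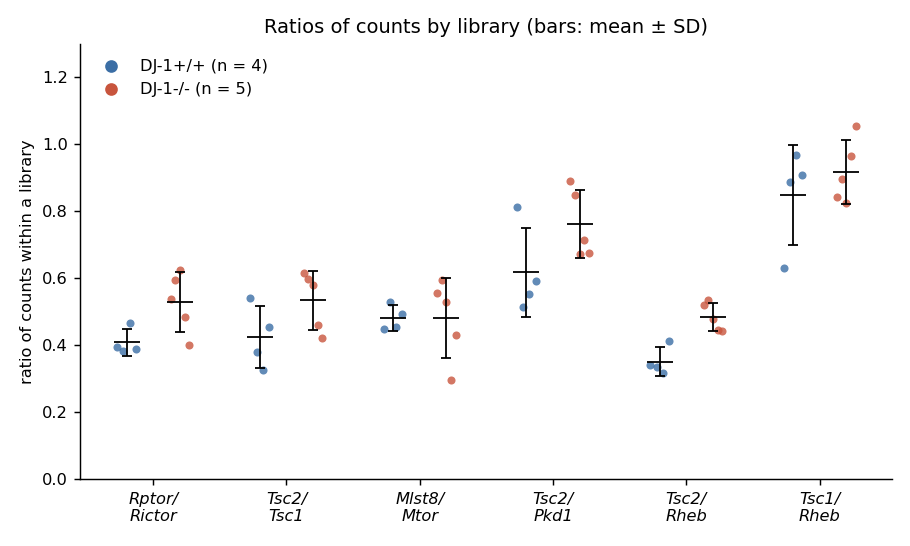
Ratio of the counts of a pair of genes within each library (vertical axis, linear from 0), 1 point per library, blue for wild-type (DJ-1+/+, n = 4) and red for DJ-1-/- (n = 5), with mean ± SD. Tsc2 to Rheb ranges from 0.316 to 0.413 in wild-type and from 0.444 to 0.536 in DJ-1-/-, and the other 5 ratios overlap. The pairs were chosen after the values of the single genes had been seen.

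By level over all 9 libraries, each gene was compared with the next in order. Deptor stood first at 135 ± 11.5 cpm (SD, n = 9), above the next gene by more than the larger SD and in 7 of 9 libraries. It was followed by Rps6kb1 at 121 ± 5.79, Rheb at 121 ± 8.78 and Mtor at 119 ± 8.71 cpm. Within these last 3, neighbours in the order did not differ beyond their SD, while Mtor was above Tsc1 in 9 of 9 libraries. Tsc1 (106 ± 9.29 cpm) and Rictor (98.2 ± 9.56 cpm) did not differ beyond their SD. After a gap came Mlst8 (57.0 ± 9.53 cpm), Tsc2 (51.4 ± 9.89 cpm) and Rptor (46.2 ± 6.39 cpm), where neighbours in the order did not differ beyond their SD. Akt1s1 was last at 19.6 ± 4.14 cpm, below Rptor in 9 of 9 libraries. In every library Rictor had more counts than Rptor. Levels of different genes also depend on how fully each 3′ end was captured and annotated, which was not examined.

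Most of the spread between libraries was no larger than counting error. For 9 of the 10 members the variance within genotype was below that expected from counting alone, the exception being Mlst8 at 1.72 times. The ratio was 0.261 for Rps6kb1 and the median over the members 0.766. Among the 9255 genes tested whose mean counts lie in the range of the members (18.7 to 128 per library), 44.9% had a ratio below 1 and the median was 1.09. The coefficient of variation expected from counting alone ran from 8.86% for Deptor to 23.2% for Akt1s1, which bounds what these libraries can resolve.

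**Figure D4:**
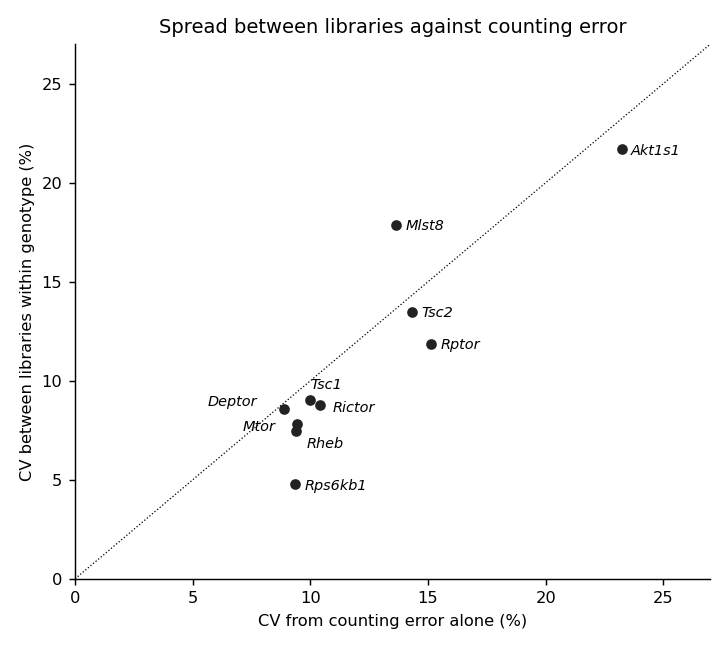
Coefficient of variation of the cpm between libraries within genotype (vertical axis, %) against that expected from counting error alone (horizontal axis, %), 1 point per gene, with a dotted line where they are equal. Mlst8 at 17.9% against 13.6% lies above the line, and the other 9 genes lie below it.

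The genes whose log2(cpm + 1) followed Mtor most closely over the 9 libraries were Lrrc75b (r = 0.94), Prpf4b (r = 0.93) and Nrsn2 (r = 0.92), picked as the highest Pearson r among 10769 genes with at least 20 counts per library on average. With so many genes and 9 libraries such values describe these libraries only. Of the 8 other members that reached this level, Tsc1 had the highest r with Mtor at 0.47 and Mlst8 the lowest at -0.28. Since the spread of Mtor was within counting error, these values do not show whether the members vary together.

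The rest of the pathway was read from 7 lists with 80 genes, all of which were tested. At an adjusted p under 0.05 there were 0 of the 80 in edgeR's quasi-likelihood test, and 0 in DESeq2. At an unadjusted p under 0.05 there were 2 (2.5%, against 2.83% of all genes tested), Flcn higher and Rragc lower in DJ-1-/- libraries, and DESeq2 also gave 2. Of the 80 genes 34 were above 0 and 46 below in log2 fold change, with a median of -0.01, and 0 had values without overlap. The extremes were -0.49 for Sesn2 and 0.81 for Castor1, an arginine sensor with 6.78 counts per library on average.

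Amino acid supply reaches mTORC1 through the Rag GTPases, which the Ragulator complex holds at the lysosome. Of the 13 genes of this list 4 were above 0 and 9 below, with a median log2 fold change of -0.03. Flcn (folliculin, which acts on the GTP state of RagC and RagD) had 66.5, 56.8, 52.4 and 54.2 cpm in the wild-type libraries and 73.1, 71.9, 65.0, 77.5 and 87.7 cpm in the DJ-1-/- libraries. DJ-1-/- replicate 3 lay just below wild-type replicate 1, and the other 4 lay above all wild-type libraries. Its log2 fold change was 0.39 (standard error 0.13, unadjusted p = 0.00745 and adjusted p = 1 in edgeR's quasi-likelihood test).

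Rragc, which encodes RagC, had 113, 103, 145 and 120 cpm in the wild-type libraries and 103, 93.8, 107, 93.0 and 106 cpm in the DJ-1-/- libraries. Wild-type replicate 3 stood highest, and replicate 2 was the one wild-type library within the DJ-1-/- range. Its log2 fold change was -0.26 (standard error 0.10, unadjusted p = 0.0216 and adjusted p = 1 in edgeR's quasi-likelihood test). Without wild-type replicate 3 the log2 fold change of Rragc was -0.16 with an unadjusted p of 0.14 in edgeR's test, and without DJ-1-/- replicate 2 it was -0.23 with 0.0525. A processed pseudogene on the same strand, Gm12902, lies within Rragc and had 8 counts over the 9 libraries.

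The sensors and gatekeepers of the GATOR and KICSTOR complexes, 17 genes, had 7 above 0 and 10 below, with a median of -0.0091. Sesn2, which encodes the leucine sensor sestrin 2, ranged from 15.1 to 29.3 cpm in wild-type and from 12.01 to 20.7 cpm in DJ-1-/- libraries, and its 95% interval of log2 fold change ran from -1.06 to 0.08. The highest Sesn2 values, 26.1 and 29.3 cpm, were those of wild-type replicates 1 and 4, and without both the log2 fold change was -0.07. It was -0.32 without wild-type replicate 4 alone. At -0.64 without wild-type replicate 3 and -0.61 without DJ-1-/- replicate 4, its unadjusted p in edgeR's test was 0.0372 and 0.0485. Growth factor input from the insulin receptor through PI3K to Akt, 13 genes, had 4 above 0 and 9 below, with a median of -0.05. Energy and stress input through AMPK, 9 genes, had 5 above 0 and 4 below, with a median of 0.09. Prkab1, a regulatory subunit of AMPK, ranged from 14.8 to 26.1 cpm in wild-type and from 22.7 to 33.0 cpm in DJ-1-/- libraries, with a log2 fold change of 0.40 (95% interval -0.08 to 0.88). Without wild-type replicates 1 and 4 together, the log2 fold change of Prkab1 was 0.75, with an unadjusted p of 0.0188 in edgeR's test. Without wild-type replicate 1 alone it was 0.54 with 0.0447, and without wild-type replicate 2 it was 0.26 with 0.267. With the Xist level in the model it was 0.57 with 0.0255. Of the pathway genes named here, Rragc and Sesn2 lie on chromosome 4 with Park7, Flcn on chromosome 11 and Prkab1 on chromosome 5. The part of position in these values was not tested.

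Downstream targets and effectors, 19 genes from Rps6 and the 4E-binding proteins to Ulk1 and Tfeb, had 10 above 0 and 9 below, with a median of 0.02 and a range from -0.17 to 0.35. The 6 partners of mTORC2 and of complex assembly had a median of 0.0021, and the 3 relatives Tbc1d7, Rhebl1 and Rps6kb2 a median of -0.02. No list other than that of the Rag GTPases and Ragulator held a gene with an unadjusted p under 0.05.

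**Figure D5:**
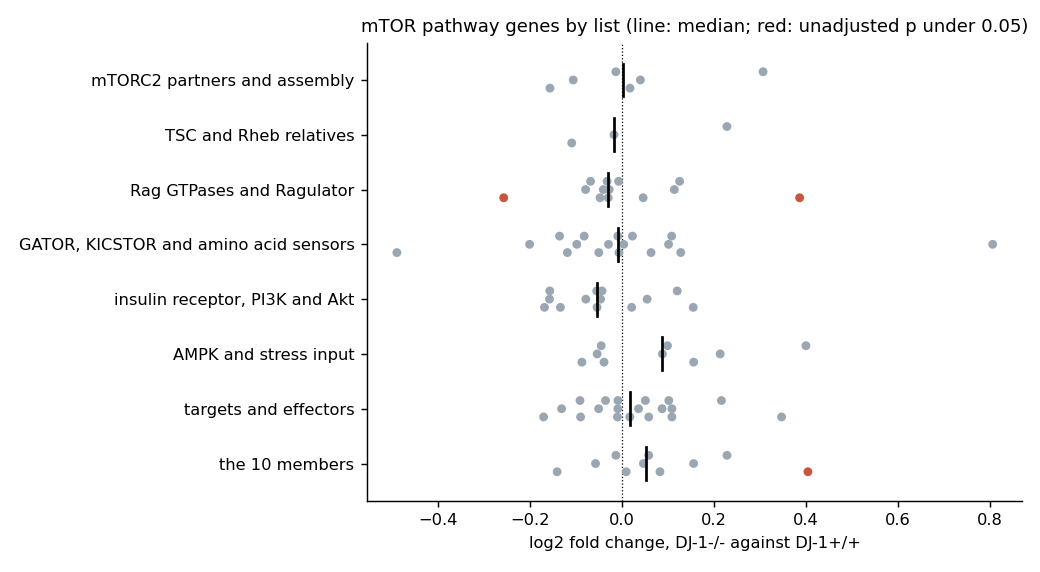
Log2 fold change between DJ-1-/- and wild-type libraries (horizontal axis) of the 80 wider pathway genes by list and of the 10 members, 1 point per gene, with the median as a black line and red for an unadjusted p under 0.05. All list medians lie between -0.05 and 0.09, and the red points are Rragc, Flcn and Tsc2.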

How the data were processed

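Midbrain libraries of DJ-1+/+ (4) and DJ-1-/- (5) mice were analysed. Per the labels, libraries were made with the QuantSeq 3′ FWD kit, and the submitters' processing notes name fastp 0.20.0, STAR 2.7.3a, Subread featureCounts 2.0.0, UMI-tools 1.0.0 and GRCm38. The strand setting and the annotation release are not given in the sources used here. The authors deposited raw UMI counts per gene, and a gene not listed was given 0.

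Identifiers were paired with symbols from GENCODE M21 (26576 of 26602 matched). The filter for testing was a sum of 10 counts across libraries, and genes passing it were tested with edgeR 4.0.16 (TMM, glmQLFit, glmQLFTest, genotype alone) in R 4.3.3. Standard errors and 95% intervals were set from the test's p and degrees of freedom. Single genes were also compared by exact permutation tests in scipy 1.17.1, and DESeq2 1.42.0 was an alternative. The scripts were tested on simulated data. Pairs of libraries within a genotype gave a chi-square per degree of freedom of 1.07 to 2.27 over 16 pairs, so none had identical counts. The lowest, 1.07 for DJ-1-/- replicates 2 and 3 and 1.12 for replicates 1 and 2, are about what counting error alone gives. The check therefore does not exclude libraries made from the same RNA. The genotypes shared cages and heterozygous mothers, but which libraries did so is not given.

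A count of 3 corresponds to between 2.73 and 3.56 cpm, which covers counting error only. Named genes are the 10 members, Park7, genes overlapping a member, wider pathway genes with an unadjusted p under 0.05 or among the 2 highest and 2 lowest fold changes at 10 or more counts per library, and the 3 genes most like Mtor. Marker genes come from their lists and Xist from a covariate of an alternative. Castor1 and Gm12902 fall outside the rule and were named after their values were seen. The members and lists were chosen with earlier results of these data known.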

Additional observations from a re-analysis of the deposited data

Results flagged for a closer look

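In 2 of 28 groups of 4 or 5 libraries examined for the 10 members and the 4 named pathway genes, a single library lay far from the rest of its genotype by Dixon's test, where chance gives about 1 in 20. Akt1s1 reached 24.8 cpm in DJ-1-/- replicate 4, against 18.6 to 20.03 cpm in the other DJ-1-/- libraries. Tsc1 was at 85.5 cpm in wild-type replicate 1, against 108 to 112 cpm in the other wild-type libraries, and that library also had the highest cerebellar neuron sum, 1119 cpm. The part of tissue composition in either value was not tested.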

How the results depend on the processing

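Under each of the 18 alternatives, 0 of the 10 members and 0 of the 80 wider pathway genes (78 tested with at least 10 counts in 4 libraries) had an adjusted p under 0.05. Tsc2, Rptor, Akt1s1 and Rps6kb1 kept a positive and Rictor a negative log2 fold change in all 18, and Tsc2 had an unadjusted p under 0.05 in 17 of them, with log2 fold changes from 0.32 to 0.58. The fold change of Mtor turned negative with RLE size factors (-0.0016), DESeq2 (-0.0009), thinned counts (-0.0076), the Xist covariate (-0.0104) and without wild-type replicates 1 and 4 together (-0.0285). In that last setting Deptor (-0.0415), Tsc1 (-0.0093) and Rheb (0.012) also changed sign. With each library left out in turn, Mtor ran from -0.0539 to 0.0528, Mlst8 from -0.0702 to 0.0843 and Tsc1 from -0.0219 to 0.0939. Deptor ran from 0.0213 to 0.1439, Akt1s1 from 0.0262 to 0.3014, Rps6kb1 from 0.0021 to 0.0871, Rictor from -0.1962 to -0.0919 and Rheb from -0.0961 to -0.0106, each moving by over 1.5 times. Members with an unadjusted p under 0.05 then numbered from 0 (without wild-type replicate 3) to 1, and wider pathway genes from 2 to 5, with 4 without wild-type replicate 1 and 5 without DJ-1-/- replicate 4. With the Xist covariate 4 wider pathway genes had one. Over all genes, the count at an adjusted p under 0.05 was 36 without a filter on low counts and 1 to 2 with a library left out. At an unadjusted p under 0.05 it was 235 in DESeq2, 802 without the filter and 338 to 732 with a library left out, lowest without DJ-1-/- replicate 2. With the replicate block, 8 genes had an adjusted p under 0.05 and Mlst8 had a log2 fold change of 0.0165. The numbers were not taken as pairs, since deviations of same-numbered libraries correlated at 0.29, 0.06, -0.12 and -0.20. The causes of these changes were not tested. Counting error limits Akt1s1 most.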
